A study of Mus musculus with 6 samples.

Results

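The Wnt ligands, their receptors and the proteins that modulate them outside the cell were examined in 3 regions of the adult mouse brain. The members were genes whose array symbol is Wnt, Fzd, Sfrp, Dkk or Rspo followed by a digit, with Dkkl1, Frzb, Wif1, Lrp5, Lrp6, Lgr4, Lgr5, Lgr6, Axin2, Znrf3, Rnf43, Notum and Lef1. This gave 55 genes of the 22180 that the array annotation names through a probe set with a single symbol. They comprise 19 ligands, 10 Frizzled receptors, 2 co-receptors, 5 genes of the Sfrp family, 5 of the Dickkopf family, 4 R-spondins, 3 R-spondin receptors, 2 ubiquitin ligases of receptor turnover, 2 other secreted inhibitors and 2 genes of feedback and nuclear response. The remaining member, Fzd10os, is a noncoding RNA from the strand opposite Fzd10 and codes for no receptor; it entered by its symbol alone.

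Wnt proteins are secreted lipid-bearing ligands that bind Frizzled receptors together with Lrp5 or Lrp6, and so stabilise beta-catenin, which acts with Lef1 and related factors on target genes. Other branches work through Frizzled without beta-catenin and shape cell polarity and axon growth. R-spondins, through Lgr receptors, keep the ubiquitin ligases Znrf3 and Rnf43 from removing Frizzled, whereas secreted frizzled-related proteins, Wif1 and Notum act on the ligand and Dkk1 on Lrp6. In the adult brain the pathway is known for its roles at synapses, in neurogenesis and at the blood-brain barrier.

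Of the 6 Affymetrix Mouse Gene 2.0 ST arrays, 2 carried RNA of the parvafox nucleus, 2 of the cerebral cortex (piriform and entorhinal) and 2 of the hippocampus (CA2 and CA3 fields), 1 array per region from each of mouse 355 and mouse 511. Both were adult C57BL/6 animals, as their labels and the study's methods give it, although the label of 1 nucleus array names no strain, and they were kept for their well-preserved RNA. The parvafox nucleus is a small cluster of neurons in the lateral hypothalamus, marked by parvalbumin and Foxb1. Tissue was cut out by laser, the nucleus being located by lectin staining on neighbouring sections, and its RNA was amplified before hybridization. A captured piece holds every cell type within it, so fewer cells of a type and less RNA per cell cannot be told apart in any value given here.

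Each value is a log2 signal after robust multi-array averaging (RMA), for which a difference of 1 is a 2-fold difference. RMA gives no call of presence, and signals of different probe sets are not compared, since probe sets differ in brightness. As a landmark, the median over all probe sets was between 3.54 and 3.69 on each array. Of the 55 members, 42 had a mean over the arrays above the median of all probe sets, which was 3.62. The members were not brighter than genes in general. The median of their means was 4.25, beside 4.31 for all genes with a single-symbol probe set. The mean signal of the markers of lateral hypothalamic neurons was 6.45 and 5.39 in the nuclei of mice 355 and 511, 4.83 and 4.41 in cortex and 4.05 and 4.37 in hippocampus. For the markers of cortical and hippocampal principal neurons it was 5.24 and 4.95 in nucleus, 7.10 and 7.78 in cortex and 7.58 and 7.69 in hippocampus. By their means these lists separate the nucleus from the other regions as labelled, although single genes did so unevenly. Among the hypothalamic genes, Pmch, Slc17a6, Adcyap1, Foxb1 and Lhx1 are also in the paper's list of enriched genes, drawn from these same arrays. For that list the separation is therefore no independent check of the labels. Of the 14 hypothalamic genes measured, 3 were 2-fold higher in the nucleus in all 4 within-mouse comparisons. Foxb1 itself was at 5.82 in the nucleus of mouse 355 and 4.15 in that of mouse 511. The principal neuron gene Neurod6 had cortical signals of 5.27 in mouse 355 and 9.28 in mouse 511. Other genes of that list ran otherwise between the cortex arrays, with Lamp5 at 8.60 and 7.39 and Slc30a3 at 9.54 and 9.49 in mice 355 and 511. Only 2 mice were measured, so the number of arrays limits the precision. With mouse as a block, p-values rest on how far the differences between regions disagree between these animals, moderated over all probe sets.

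The first question was which members set the nucleus apart from both reference regions, by the study's own rule of a 2-fold difference from each of them in each mouse. Sfrp5 alone was higher by that rule, 1 of 55 members, against 0.245% of all 41155 probe sets. No member was lower by it, against 0.474% of all probe sets. The paper already lists Sfrp5 among its enriched genes. In its check against the Allen Brain Atlas, Sfrp5 was positive, but was not marked for the lateral hypothalamus or the parvafox nucleus. The promoters of Sfrp5 and Frzb are shown because these genes of 1 family lay on opposite sides in the nucleus. Each window runs from 250 bases before to 50 bases after the start of the gene, 5′ to 3′ on the minus strand, from RefSeq on build GRCm38.p6, at chr19:42202203-42202502 for Sfrp5 and at chr2:80447347-80447646 for Frzb. Capitals mark CpG dinucleotides.
Sfrp5: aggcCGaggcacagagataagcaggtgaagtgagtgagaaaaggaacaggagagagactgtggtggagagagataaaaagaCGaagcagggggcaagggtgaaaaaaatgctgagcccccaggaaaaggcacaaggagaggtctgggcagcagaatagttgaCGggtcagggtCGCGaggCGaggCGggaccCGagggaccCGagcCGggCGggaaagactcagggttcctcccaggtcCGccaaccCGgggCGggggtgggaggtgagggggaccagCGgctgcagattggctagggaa
Frzb: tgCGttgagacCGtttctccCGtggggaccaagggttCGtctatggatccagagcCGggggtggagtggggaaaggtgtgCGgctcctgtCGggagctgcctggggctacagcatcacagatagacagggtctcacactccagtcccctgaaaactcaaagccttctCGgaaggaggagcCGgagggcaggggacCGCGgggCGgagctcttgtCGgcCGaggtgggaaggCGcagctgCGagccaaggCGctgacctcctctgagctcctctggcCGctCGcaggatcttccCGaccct
The Sfrp5 window has 15 CpG dinucleotides and a GC content of 61.3%, and the Frzb window has 20 and 64.7%. Both lie above the median of all 32851 promoters in the table, which is 7 CpG dinucleotides and 52.7% GC. The 42 windows found for 35 of the members had medians of 24 CpG dinucleotides and 66.5% GC. On either strand, the letters CTTTGAT, a core site of TCF and LEF factors, were found in 2 of these 42 windows, those of Wnt11 and Wnt5b, against 3.73% of all promoters, and CTTTGAA in 1, that of Dkk1, against 5.14%. The letters CCAAT were in 13 windows, against 37.4% of all promoters, and Sfrp5 carries 1 such run on the opposite strand in the 50 bases after its start. Neither run of TCF letters, no CCAAT and no TATAAA (in 6 member windows, 13.6% of all promoters) occurs in the Frzb window.

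The secreted frizzled-related proteins share the Wnt-binding domain of the Frizzled receptors and can hold Wnts away from them. Sfrp5 had a log2 signal of 6.79 and 7.28 in the nuclei of mice 355 and 511, 5.01 and 3.74 in cortex and 4.03 and 4.26 in hippocampus. Both nucleus arrays lay above the other 4, while the hippocampal values lay between those of the cortex. The nucleus was 3.44-fold and 11.7-fold above the cortex in mice 355 and 511, and 6.76-fold and 8.13-fold above the hippocampus. The log2 fold change from limma was 2.66 ± 0.47 (SE, n = 2 mice) for nucleus over cortex and 2.89 ± 0.47 for nucleus over hippocampus. Neither passed after Benjamini-Hochberg adjustment over all probe sets (adjusted p = 0.418 and 0.254 from limma).

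Frzb, also called Sfrp3, ran the other way. Its signal was 2.65 and 3.07 in nucleus, 3.67 and 3.34 in cortex and 3.86 and 4.68 in hippocampus. The regions did not overlap, with the nucleus lowest and the hippocampus highest, but 3 of the 6 values, both of the nucleus and that of cortex from mouse 511, were under every array median. Frzb was lower in the nucleus than in the hippocampus by more than 2-fold in each mouse, with log2 differences of -1.21 and -1.61. The limma fold change was -1.41 ± 0.32 (SE, log2 scale, adjusted p = 0.333). Against the cortex the difference was -1.02 in mouse 355 and -0.26 in mouse 511, so that the study's rule was met in 3 of its 4 comparisons.

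The other 3 genes of the family separated the regions less. Sfrp2 had 5.75 and 5.20 in nucleus, 5.55 and 4.63 in cortex and 5.20 and 4.42 in hippocampus. In both mice the order was nucleus, cortex, hippocampus, although values of different mice overlapped, and the log2 fold change against the hippocampus was 0.67 ± 0.20 (SE, adjusted p = 0.433 from limma). Sfrp1 was between 3.85 and 4.93 and Sfrp4 between 2.80 and 3.51 on the 6 arrays, and neither reached a 2-fold difference in any within-mouse comparison.

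**Figure D1:**
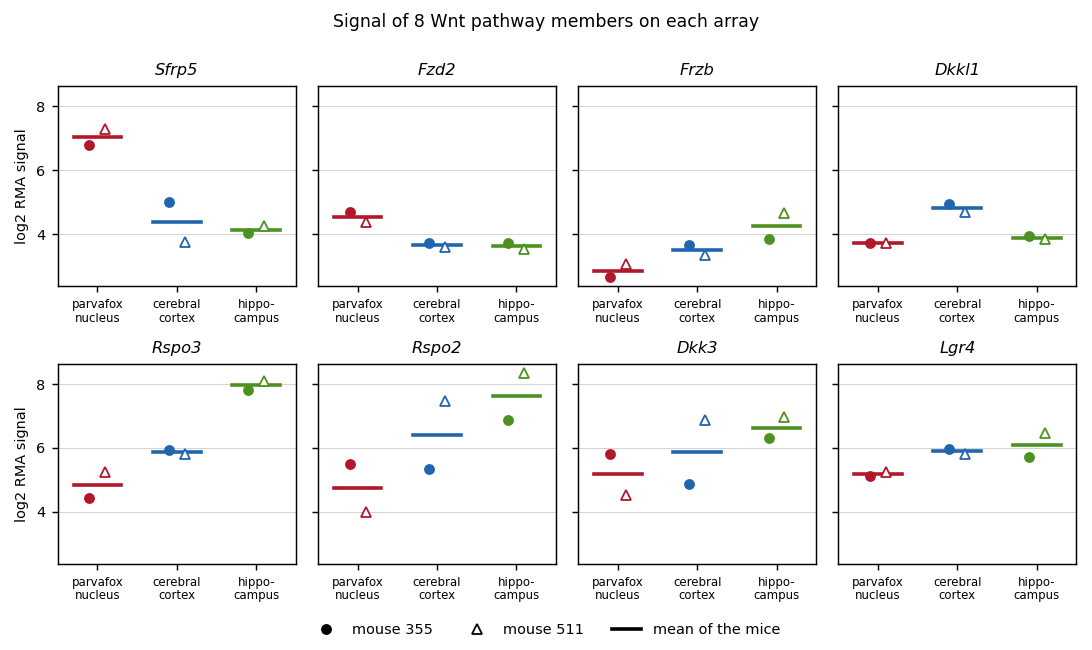
Log2 RMA signal (vertical axis) of 8 members in the parvafox nucleus, cerebral cortex and hippocampus, with mouse 355 as filled circles, mouse 511 as open triangles and the mean of the mice as a line. Sfrp5 at 6.79 and 7.28 in the nucleus lies above all reference arrays, Rspo3 is highest in the hippocampus at 7.82 and 8.10, and the mice lie far apart for Rspo2 and Dkk3.

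Among the members, the lowest limma fold changes of nucleus over hippocampus were those of the R-spondins Rspo3 and Rspo2. Rspo3 had a log2 signal of 4.44 and 5.26 in the nuclei of mice 355 and 511, 5.95 and 5.80 in cortex and 7.82 and 8.10 in hippocampus. No region overlapped another, and the order was the same in both mice. Against the hippocampus, the nucleus differed by -3.38 and -2.85 on the log2 scale, and the limma fold change was -3.11 ± 0.28 (SE, adjusted p = 0.152). This became a call, with an adjusted p of 0.0445, when only probe sets with a single gene symbol were tested, and it was the sole member called in any of the alternatives. The cortex was also 2-fold below the hippocampus in each mouse, by -1.88 and -2.30, with a limma fold change of -2.09 ± 0.28 (SE, adjusted p = 0.98). Between nucleus and cortex the differences were -1.50 and -0.55, with a fold change of -1.02 ± 0.28 (SE, adjusted p = 0.557 from limma).

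Rspo2 had a signal of 5.49 and 3.99 in nucleus, 5.34 and 7.48 in cortex and 6.89 and 8.35 in hippocampus. Within each mouse the hippocampus was highest, but over the arrays the cortex of mouse 511 lay between the hippocampal values and that of mouse 355 between the nucleus values. The nucleus was below the hippocampus by -1.40 in mouse 355 and -4.36 in mouse 511. The limma fold change was -2.88 ± 0.91 (SE, adjusted p = 0.454), and over the alternatives it lay between -4.53 and -1.23. It was -4.53 without the nucleus of mouse 355 and -1.23 without that of mouse 511, so the size depends on which animal is kept. Against the cortex the mice differed in sign, at 0.15 and -3.49. Between the cortex arrays, 3 of the 12 principal neuron markers (Neurod6, Tbr1 and Fezf2) were also 2-fold higher in mouse 511, and 1, Lamp5, was 2-fold higher in mouse 355. The part of principal neurons in the R-spondin values was not tested. Rspo1 was between 5.52 and 6.40 and Rspo4 between 3.84 and 4.36, with no within-mouse difference of 2-fold.

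The receptors of the R-spondins are Lgr4, Lgr5 and Lgr6, of which Lgr5 is also a Wnt target and a stem cell marker. Lgr4 had 5.13 and 5.23 in nucleus, 5.96 and 5.81 in cortex and 5.71 and 6.47 in hippocampus. Both nucleus values lay below the other 4, with differences of -0.83 and -0.58 from cortex and of -0.58 and -1.24 from hippocampus within mice. The limma fold change against the hippocampus was -0.91 ± 0.28 (SE, log2 scale, adjusted p = 0.444). Lgr5 had 4.63 and 4.61 in nucleus, 4.98 and 4.92 in cortex and 4.48 and 4.00 in hippocampus. The cortex was highest and the hippocampus lowest with no overlap, and cortex over hippocampus gave 0.71 ± 0.22 (SE, adjusted p = 0.999 from limma). Lgr6 was between 4.94 and 5.45 on all arrays. Of the ubiquitin ligases that take Frizzled from the surface, Znrf3 had 4.44 and 4.69 in nucleus, 5.30 and 5.11 in cortex and 4.96 and 4.84 in hippocampus. Its nucleus values lay below the others, and nucleus over cortex was -0.64 ± 0.21 (SE, log2 scale, adjusted p = 0.59 from limma). Rnf43 was between 3.72 and 4.57.

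Among the Frizzled receptors, Fzd2 lay just outside the 2-fold rule. Its signal was 4.69 and 4.37 in nucleus, 3.71 and 3.59 in cortex and 3.74 and 3.55 in hippocampus. Both nucleus arrays lay above the other 4, which spanned little. The nucleus was 1.97-fold and 1.72-fold above the cortex in mice 355 and 511, and 1.94-fold and 1.76-fold above the hippocampus. The log2 fold changes were 0.88 ± 0.19 (SE, adjusted p = 0.476 from limma) against the cortex and 0.89 ± 0.19 (SE, adjusted p = 0.312) against the hippocampus. The smallest of the 4 differences was 0.78 for Fzd2, just outside the limit of 1, and 1.78 for Sfrp5, the only member inside it.

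Fzd3, which guides axons and takes part in planar polarity, had 6.90 and 7.33 in nucleus, 7.17 and 7.08 in cortex and 6.79 and 7.35 in hippocampus, so that its regions overlapped. Fzd1 stood at 6.38 in the nucleus and 4.74 in the cortex of mouse 511, a difference of 1.64, but at 5.60 and 5.70 in those of mouse 355. Fzd4, which also serves as the receptor of the ligand norrin in retinal vessels, was 2.05-fold higher in cortex than in hippocampus in mouse 511 and 1.02-fold in mouse 355. The other 6 receptors, Fzd5 to Fzd10, had no within-mouse difference of 2-fold. Fzd5 was between 3.62 and 4.39, Fzd6 between 2.89 and 3.88, Fzd7 between 4.03 and 4.24, and Fzd8 between 3.78 and 4.77. Fzd9 spanned 4.05 to 5.11 and Fzd10 2.68 to 3.04, with every Fzd10 value below the array medians. For Fzd5 and Fzd10 both cortex values lay above, and both nucleus values below, the other 4 arrays. Fzd10os was at 3.33 and 4.79 in nucleus, 3.56 and 4.16 in cortex and 3.74 and 3.27 in hippocampus, with overlapping regions.

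The co-receptor Lrp5 had 4.68 and 4.43 in nucleus, 4.66 and 4.65 in cortex and 5.25 and 5.35 in hippocampus. Its hippocampal values lay above the other 4. The limma fold change was -0.74 ± 0.20 (SE, log2 scale, adjusted p = 0.391) for nucleus over hippocampus and -0.64 ± 0.20 (SE, adjusted p = 0.999) for cortex over hippocampus. Lrp6, its close relative, had 5.64 and 6.67 in nucleus, 6.33 and 5.54 in cortex and 5.51 and 6.38 in hippocampus. The regions of Lrp6 overlapped, and nucleus minus cortex was -0.69 in mouse 355 and 1.13 in mouse 511.

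Of the 19 ligands, 16 (84.2%) showed no 2-fold difference in any of 6 within-mouse comparisons, beside 76.2% of all probe sets and 80.4% of all genes. Wnt7b, which acts in vessel growth and the blood-brain barrier together with Wnt7a, had 5.37 and 5.40 in nucleus, 5.54 and 5.21 in cortex and 6.17 and 6.02 in hippocampus. Only the hippocampus stood apart, above the other 4 arrays. The limma fold change was -0.71 ± 0.20 (SE, log2 scale, adjusted p = 0.408) for nucleus over hippocampus and -0.72 ± 0.20 (SE, adjusted p = 0.999) for cortex over hippocampus. The mean signal of 16 endothelial and mural markers was 5.85 and 5.91 in nucleus, 5.77 and 5.89 in cortex and 5.96 and 6.02 in hippocampus. Their median log2 fold change was only -0.07 for nucleus over hippocampus and -0.05 for cortex over hippocampus. Acta2 alone was 2-fold different in both mice, at 6.98 and 6.54 in cortex and 8.75 and 8.20 in hippocampus. Slco1a4 ran the other way, at 7.35 and 7.34 in cortex and 6.73 and 6.58 in hippocampus. The part of these cells in the Wnt7b values was not tested.

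Wnt5a, a ligand known mostly for signalling without beta-catenin, had 4.20 and 3.20 in nucleus, 2.89 and 2.67 in cortex and 3.48 and 3.39 in hippocampus. All of these but the nucleus value of mouse 355 lay below every array median. The cortex was lowest, and nucleus over cortex was 0.92 ± 0.29 (SE, log2 scale, adjusted p = 0.583 from limma), with 1.31 in mouse 355 and 0.53 in mouse 511. The other ligands with a 2-fold difference in 1 mouse were Wnt4, at 4.22 and 4.50 in nucleus, 5.40 and 4.41 in cortex and 4.65 and 5.30 in hippocampus, and Wnt7a, at 5.14 and 4.44, 4.83 and 4.29, and 4.79 and 5.36 in the same order. Values of both overlapped between regions.

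The remaining ligands are given by their range over the 6 arrays. Wnt1, Wnt3 and Wnt3a, which signal through beta-catenin and pattern the embryonic neural tube, were between 3.50 and 4.09, 2.38 and 3.18, and 3.44 and 4.08. Wnt2 was between 3.19 and 3.72 and Wnt2b between 4.05 and 4.38, with both hippocampal values of Wnt2b below the other 4. Wnt5b was between 3.61 and 4.18, Wnt6 between 4.13 and 4.53, Wnt8a between 3.83 and 4.05 and Wnt8b between 2.80 and 3.47. The widest ranges here were those of Wnt9a, at 4.32 to 5.29, and Wnt9b, at 4.40 to 5.49. In Wnt9b both extremes were cortex arrays, with mouse 355 highest and mouse 511 lowest. Wnt10a was between 4.39 and 4.95, with both nucleus values above and both hippocampal values below the other 4. Wnt10b was between 3.80 and 4.32, Wnt11 between 3.17 and 3.68, and Wnt16 between 2.19 and 2.65. Every value of Wnt3, Wnt8b and Wnt16 lay below the array medians.

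Within the Dickkopf family, Dkkl1, a secreted relative of Dkk3 known from testis, was highest in the cortex. The difference did not reach 2-fold in both mice against either region. It had 3.72 on both nucleus arrays, 4.93 and 4.69 in cortex and 3.93 and 3.86 in hippocampus. The cortex lay above the other 4 arrays, and nucleus minus cortex was -1.21 and -0.97 in mice 355 and 511. The limma fold change was -1.09 ± 0.19 (SE, log2 scale, adjusted p = 0.415) for nucleus over cortex and 0.92 ± 0.19 (SE, adjusted p = 0.98) for cortex over hippocampus.

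Dkk3, whose action on Wnt signals is less settled than that of Dkk1, had 5.82 and 4.51 in nucleus, 4.87 and 6.88 in cortex and 6.30 and 6.95 in hippocampus. As for Rspo2, the cortex of mouse 511 was at the level of the hippocampus and that of mouse 355 among the nucleus values. Nucleus minus cortex was 0.96 in mouse 355 and -2.36 in mouse 511. Dkk4, an antagonist at Lrp6, had 3.15 and 3.18 in nucleus, 2.87 and 2.69 in cortex and 3.70 and 3.56 in hippocampus, with a cortex over hippocampus fold change of -0.85 ± 0.19 (SE, log2 scale, adjusted p = 0.98 from limma). Its regions did not overlap, though most values lay below the array medians. Dkk1 was between 2.88 and 3.23 and Dkk2 between 3.11 and 3.95.

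Wif1, which binds Wnts outside the cell, had 5.39 and 3.95 in nucleus, 4.21 and 4.05 in cortex and 4.63 and 3.72 in hippocampus. Its highest value was the nucleus of mouse 355, and the nucleus of mouse 511 lay within the range of the hippocampus. Notum, the enzyme that strips the lipid from Wnts, was between 3.55 and 4.65 with overlapping regions. Axin2, a feedback inhibitor often read as a measure of beta-catenin activity, had 5.52 and 5.33 in nucleus, 5.59 and 5.86 in cortex and 5.67 and 5.51 in hippocampus. No Axin2 difference within a mouse reached 2-fold. Lef1, the DNA-binding partner of beta-catenin, had 6.00 and 5.68 in nucleus, 5.48 and 4.74 in cortex and 5.50 and 5.65 in hippocampus. Both nucleus values of Lef1 lay above the other 4, by 0.03 at the narrowest, and nucleus over cortex was 0.73 ± 0.27 (SE, log2 scale, adjusted p = 0.627 from limma), which became 0.40 without the cortex of mouse 511 and 1.06 without that of mouse 355.

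**Figure D2:**
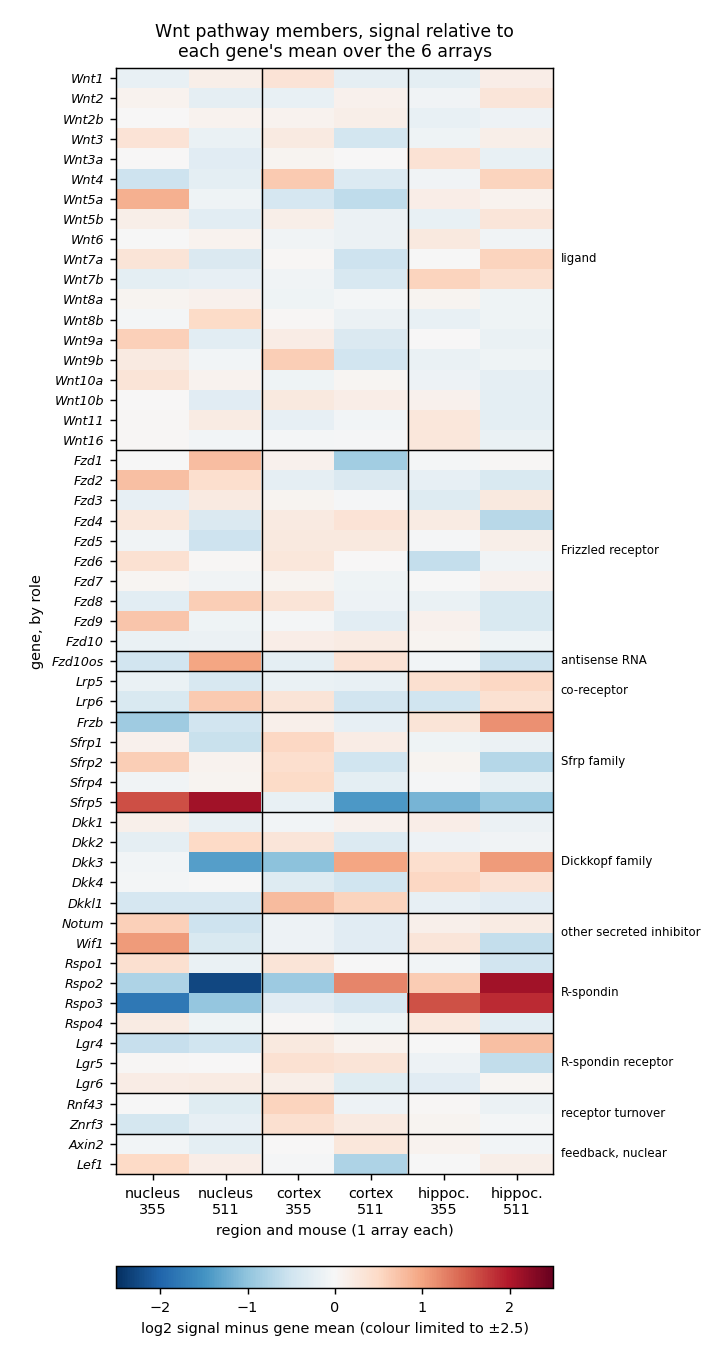
Log2 signal of each of the 55 members (rows, by role) on each of the 6 arrays (columns, nucleus, cortex and hippocampus of each mouse), minus the gene's mean over the arrays, in red where higher and blue where lower (log2 units). Sfrp5 is red on both nucleus arrays and Rspo3 on both hippocampal arrays, while most ligand and Frizzled rows stay pale.

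Over the members as a whole, limma with mouse as a block called none of the 55 at an adjusted p under 0.05 in any comparison. The background was 0% of all probe sets for nucleus over cortex, 0.00243% (1 probe set) for nucleus over hippocampus and 0% for cortex over hippocampus. At an unadjusted p under 0.05, 4 members were higher in the nucleus than in the cortex (Fzd2, Lef1, Sfrp5 and Wnt5a), 7.27% against 3.78% of all probe sets. Lower in the nucleus were 3, Dkkl1, Rspo3 and Znrf3, which is 5.45% against 4.13%. Against the hippocampus, 3 members were higher in the nucleus (Fzd2, Sfrp2 and Sfrp5), 5.45% against 4.81% of all probe sets. Lower in the nucleus were 6, Frzb, Lgr4, Lrp5, Rspo2, Rspo3 and Wnt7b, which is 10.9% against 4.78%. For cortex over hippocampus, 2 were higher in the cortex (Dkkl1 and Lgr5), 3.64% against 2.38%, and 4 were lower (Dkk4, Lrp5, Rspo3 and Wnt7b), 7.27% against 2.36%. Over all 22180 genes, 3.18% were higher and 4.68% lower for nucleus over cortex, and 4.52% and 5.89% for nucleus over hippocampus. For cortex over hippocampus these shares were 2.02% and 2.18%. The member counts rest on few genes and were named after their values were seen, and the comparisons share arrays.

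**Figure D3:**
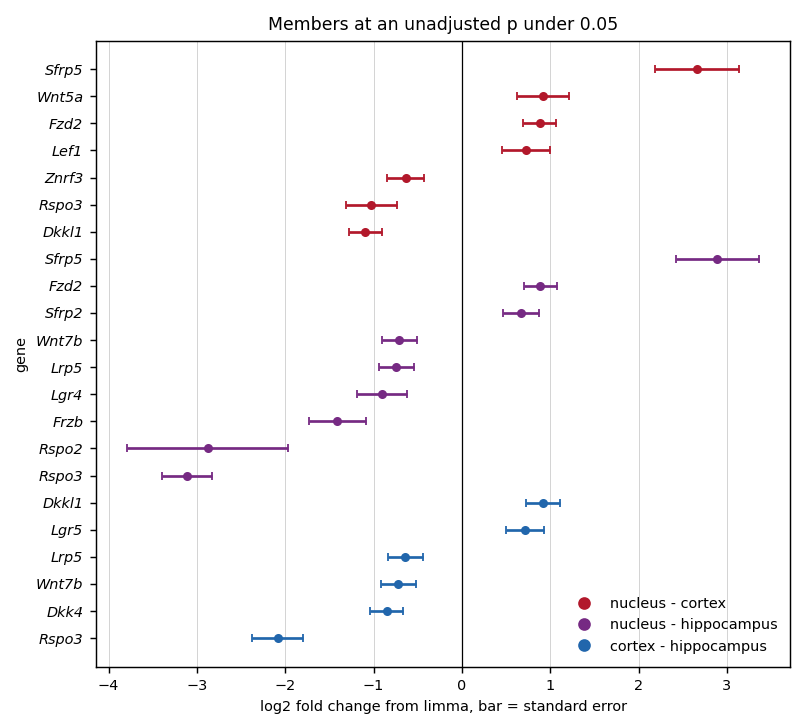
Log2 fold change from limma (horizontal axis) with its standard error for each member at an unadjusted p under 0.05, for nucleus minus cortex, nucleus minus hippocampus and cortex minus hippocampus. Sfrp5 lies farthest to the right at 2.66 and 2.89, Rspo3 farthest to the left at -3.11, and the widest error, 0.91, belongs to Rspo2.

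By a 2-fold difference in both mice, Sfrp5 was the only member for which nucleus exceeded cortex, against 0.603% of all probe sets, and none was lower, against 0.863%. Against the hippocampus, Sfrp5 was again the only one higher, against 1.05% of all probe sets, and Frzb, Rspo2 and Rspo3 were lower, 5.45% of the members against 1.24%. Between cortex and hippocampus, no member was higher in the cortex, against 0.384% of all probe sets, and Rspo3 was lower, against 0.403%. Over all genes, 0.415% were higher and 0.956% lower for nucleus over cortex, and 0.987% and 1.52% for nucleus over hippocampus. For cortex over hippocampus these shares were 0.307% and 0.198%. The median log2 fold change of the members was 0.01 for nucleus over cortex, 0.04 for nucleus over hippocampus and -0.01 for cortex over hippocampus, beside 0.03, 0.04 and 0.02 over all probe sets. The 2 mice had the same sign for 31 members in nucleus over cortex, which is 56.4% against 53.5% of all probe sets. For nucleus over hippocampus it was 35 members, 63.6% against 55.1%, and for cortex over hippocampus 27 members, 49.1% against 51.5%. Both nucleus arrays lay above the other 4 for 5 members (Fzd2, Lef1, Lgr6, Sfrp5 and Wnt10a), beside 10.7% of all probe sets, and below them for 7 (Dkkl1, Frzb, Fzd10, Fzd5, Lgr4, Rspo3 and Znrf3), beside 8.46%. Both cortex arrays lay above the other 4 for 8 of the 55 members, beside 5.6% of all probe sets, and below for 4, beside 5.72%. For both hippocampal arrays it was 5 members above, beside 6.02%, and 4 below, beside 8.5%. In all, 40 of the 55 members (72.7%) stayed under 2-fold in every within-mouse comparison of regions, beside 76.2% of all probe sets and 80.4% of all genes. By comparison, those under 2-fold in both mice were 80% of the members for nucleus and cortex, beside 85.3% of all probe sets, 87.3% beside 84.2% for nucleus and hippocampus, and 89.1% beside 89.7% for cortex and hippocampus. Over all genes these shares were 88.7%, 87.1% and 92.7% in the same order.

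**Figure D4:**
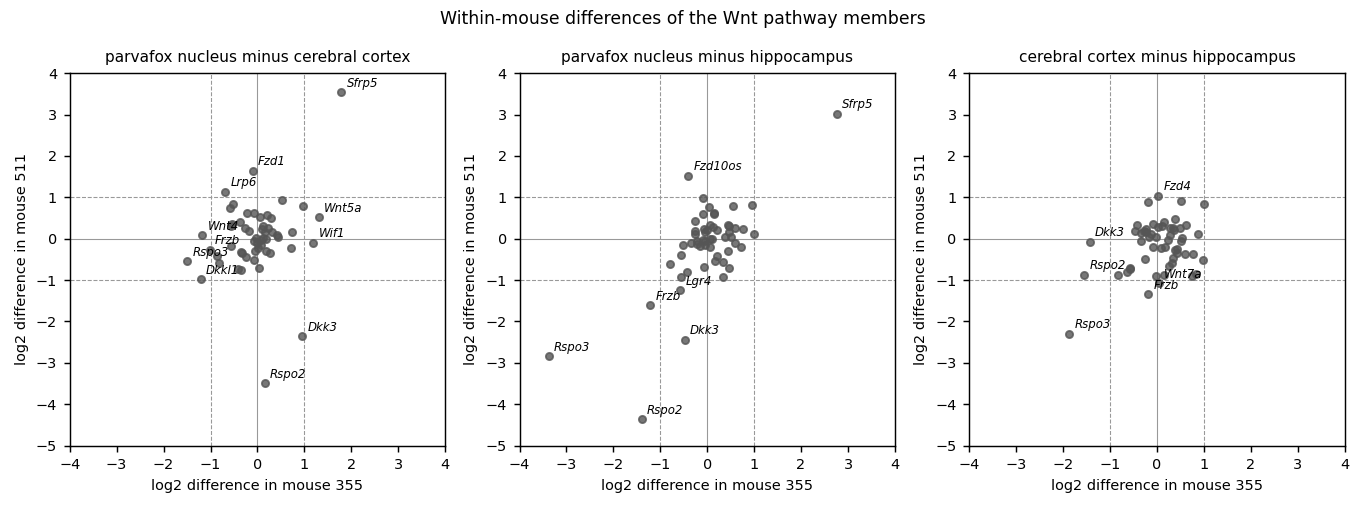
Log2 difference in mouse 355 (horizontal axis) against that in mouse 511 (vertical axis) for each of the 55 members, with 1 panel per pair of regions and dashed lines at 2-fold. Sfrp5 lies at 1.78 and 3.54 over the cortex and at 2.76 and 3.02 over the hippocampus, Rspo3 at -3.38 and -2.85 for nucleus minus hippocampus, and most members lie within the dashed lines.

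Markers of other cell types also differed between the regions. Of the 12 measured markers of principal neurons, 8 were 2-fold lower in the nucleus than in both regions of each mouse, as Slc17a7, the glutamate transporter of these neurons, at 4.13 and 3.27 in nucleus, 9.51 and 9.96 in cortex and 9.83 and 9.79 in hippocampus. Of 14 lateral hypothalamic genes, Pmch, Slc17a6 and Adcyap1 were higher by the same rule, and 0 were lower. Those higher are genes that the paper selected from these arrays by that rule. Cartpt went the other way in mouse 511, at 5.00 in nucleus, 7.95 in cortex and 6.88 in hippocampus. Hcrt overlapped between regions, at 3.74 and 2.73 in nucleus, 3.54 and 2.94 in cortex and 3.06 and 3.25 in hippocampus. The mean signal of 14 astrocyte markers was 8.24 and 8.43 in nucleus, 7.99 and 7.63 in cortex and 8.12 and 7.97 in hippocampus. That of 10 oligodendrocyte markers was 8.09 and 7.94 in nucleus, 7.79 and 7.33 in cortex and 6.59 and 7.01 in hippocampus. For 10 meningeal markers it was 5.19 and 5.25 in nucleus, 5.27 and 4.95 in cortex and 5.78 and 5.64 in hippocampus. Without Dcn, which had 6.02 and 6.72 in nucleus, 6.63 and 4.79 in cortex and 10.10 on both hippocampal arrays, the other 9 averaged 5.10 and 5.08 in nucleus, 5.11 and 4.97 in cortex and 5.30 and 5.14 in hippocampus. Ptgds, also in that list, was lowest in the hippocampus, at 10.01 and 9.70, against 11.21 and 10.97 in the nucleus. Microglial markers, 9 in number, averaged 6.55 and 6.49 in nucleus, 6.63 and 7.23 in cortex and 6.92 and 7.21 in hippocampus, with the cortex high in mouse 511 as for Rspo2 and Dkk3. The mean over 11 markers of choroid plexus and ependyma lay between 3.63 and 3.90 on the arrays. Single markers of that list differed more, with Otx2 highest in the nucleus and Ttr in the hippocampus. The 11 thalamic and habenular markers, Lef1 among them, averaged 5.46 and 5.48 in nucleus, 5.17 and 5.15 in cortex and 5.23 and 5.50 in hippocampus, with Slitrk6 higher and Nr4a2 lower in the nucleus by the rule of 4 comparisons. The part of these cell types in the members' values was not tested.

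Other genes of the pathway were taken from 5 lists of its remaining parts, and none of their genes passed the adjusted test in any comparison. Of 26 intracellular genes of the canonical pathway, none differed by 2-fold in both mice in any pair of regions. Beta-catenin itself, Ctnnb1, had 7.96 and 7.99 in nucleus, 8.38 and 7.95 in cortex and 8.06 and 8.11 in hippocampus. Cxxc4, an inhibitor that binds Dishevelled, had 7.58 and 7.82 in nucleus, 6.89 and 6.95 in cortex and 6.97 and 7.29 in hippocampus, with a nucleus over cortex fold change of 0.78 ± 0.19 (SE, log2 scale, adjusted p = 0.524 from limma). Tle3, a corepressor of LEF factors, had 4.49 and 5.27 in nucleus, 5.27 and 5.39 in cortex, and 6.01 on both hippocampal arrays.

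Among 20 further receptors and planar polarity genes, Gpc4 was lower in the nucleus by 2-fold in all 4 comparisons. This heparan sulfate proteoglycan of the cell surface had 3.67 and 3.90 in nucleus, 5.60 and 5.11 in cortex and 6.30 and 6.40 in hippocampus. No region overlapped another, and the limma fold change was -1.57 ± 0.25 (SE, log2 scale, adjusted p = 0.394) against the cortex and -2.56 ± 0.25 (SE, adjusted p = 0.161) against the hippocampus. Of 10 further inhibitors, Apcdd1, which sits in the membrane and is also listed as a Wnt target, had 5.87 and 5.52 in nucleus, 7.01 and 7.24 in cortex and 7.26 and 7.34 in hippocampus. It too was 2-fold lower in all 4 comparisons, with a log2 fold change of -1.43 ± 0.23 (SE, adjusted p = 0.393 from limma) against the cortex.

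Of 17 listed Wnt targets, 16 were measured and 5 of these are members. At an unadjusted p under 0.05, the nucleus had 1 of the 16 higher and 4 lower than the cortex, where 3.78% and 4.13% of all probe sets were so. Against the hippocampus, 0 were higher and 3 lower, where 4.81% and 4.78% of all probe sets were so. Tnfrsf19, a receptor of the tumour necrosis factor family, was 2-fold lower in all 4 comparisons, at 4.93 and 4.77 in nucleus, 6.17 and 6.08 in cortex and 7.02 and 6.58 in hippocampus. Ccnd1, which encodes cyclin D1, had 7.05 and 6.84 in nucleus, 7.66 and 8.00 in cortex and 7.77 and 7.53 in hippocampus, with a fold change of -0.89 ± 0.24 (SE, log2 scale, adjusted p = 0.54 from limma) against the cortex. The median log2 fold change of the target list was 0.11 for nucleus over cortex and 0.06 for nucleus over hippocampus, both above 0. The 2 genes of Wnt secretion, Porcn and Wls, had none at an unadjusted p under 0.05 in any comparison.

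**Figure D5:**
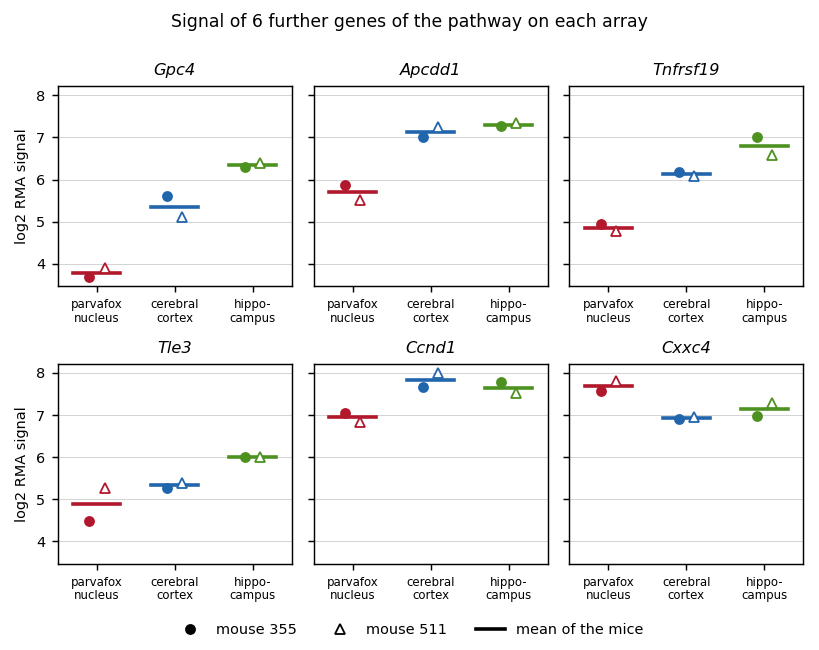
Log2 RMA signal (vertical axis) of 6 further genes of the pathway in the 3 regions, with mouse 355 as filled circles, mouse 511 as open triangles and the mean of the mice as a line. Gpc4, Apcdd1 and Tnfrsf19 are lowest on both nucleus arrays, Gpc4 at 3.67 and 3.90, and Cxxc4 is highest there at 7.58 and 7.82.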

How the data were processed

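RNA was measured in 6 laser-captured samples, 3 regions in each of 2 mice. Affymetrix Expression Console 1.2.1.20 was used by the authors for RMA normalization, and the submitters' processing notes also name R 2.14.2, limma and Partek. The deposited values are log2 signals, which were used unchanged. The genome build behind them is not given in the sources used here. RMA compresses differences of dim probe sets, and amplification of small captured samples can add noise between arrays.

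Of 41345 probe sets, 190 controls were left out and 41155 tested. The platform annotation, which can be old, names 1 symbol for 23521 probe sets and several for 1820. The 55 members had 60 probe sets, and the brighter one over the 6 arrays represented each of the 5 genes with 2. All 55 matched RefSeq genes of GRCm38.p6 by gene ID, with the same symbol.

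Regions were compared in limma 3.58.1 under R 4.3.3 (lmFit, eBayes), with mouse as a fixed block because the labels give the same animal for the 3 regions, which left 2 residual degrees of freedom. P-values were adjusted over all probe sets by Benjamini-Hochberg, with a threshold of 0.05. The study's 2-fold rule was applied within mice. The methods were tested on simulated arrays with independent noise, no mouse effect and a known shift of some probe sets in the nucleus. Those arrays lack the disagreement between mice seen here, so that test cannot show how the methods handle it. Genes named were members 2-fold different in both mice in a pair of regions, the brightest member of each role, those beside the limit of the rule, and genes of the pathway lists that met the first part. Members at an unadjusted p under 0.05 or different in 1 mouse, as well as Cxxc4, Ccnd1, Tle3 and Ctnnb1, were named after their values were seen. Members, lists and tests were chosen with earlier results of these data known. The alternatives dropped the block or made it random, left out each array in turn, and used other probe set filters and scalings, other eBayes settings, folds of 1.5 and 3, and the mean over probe sets. Python 3.11.15 (pandas 2.3.3, numpy 2.4.6, matplotlib 3.10.9) produced the tables and figures. RefSeq promoter windows of Rspo2 and Rspo3 were not used here.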

Additional observations from a re-analysis of the deposited data

How the results depend on the processing

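Without the replicate block for mouse, 0 members passed the adjusted test in each of the 3 comparisons, as with it. With only probe sets above the median of all, 0 members passed for nucleus over hippocampus. With only probe sets of 1 gene symbol, 1 member passed there, Rspo3. Both the fit and the adjustment were redone on the kept probe sets, and their parts in this call were not tested. The log2 fold change of Rspo3 for nucleus over hippocampus lay between -3.48 and -2.74 over 15 alternatives. Leaving out 1 array gave 0 to 2 members lower in the nucleus by the rule of 4 comparisons, against 0 with all arrays, since fewer comparisons then have to be met. Without the nucleus of mouse 355 these were Dkk3 and Rspo2, without that of mouse 511 Frzb and Rspo3, without the cortex of mouse 355 Rspo2 and without the cortex of mouse 511 Frzb and Rspo3. With the mean of the mice, 2 members were lower in the nucleus (Rspo2 and Rspo3). Sfrp5 met the rule under every alternative run, with a log2 fold change of 1.85 to 3.48 for nucleus over cortex and 2.38 to 3.40 for nucleus over hippocampus, and at a fold of 1.5 it was joined by Fzd2, giving 2. For cortex over hippocampus, 1 member was higher at a fold of 1.5 (Dkkl1) and 0 to 1 with 1 array left out. There, 5 were lower at a fold of 1.5, 2 with the mean of the mice, 2 after subtracting Actb, and 1 to 3 with 1 array left out: Frzb, Rspo3 and Wnt7a without the cortex or the hippocampus of mouse 355, and Dkk3, Rspo2 and Rspo3 without either of mouse 511. Frzb, Dkk4 and Wnt5a were too dim for the filter at the median of all probe sets, which gave no value for them. At an unadjusted p under 0.05, over the 15 alternatives, 2 to 5 members were higher and 1 to 5 lower for nucleus over cortex, 2 to 5 and 1 to 7 for nucleus over hippocampus, and 1 to 3 and 1 to 6 for cortex over hippocampus. Among single fold changes, 326 values kept their direction and side of the threshold, 1 passed it and 0 reversed. Besides Rspo2, the sizes that went beyond 1.5 times were those of Lef1 (0.40 without the cortex of mouse 511), Wnt5a (0.49 without the nucleus of mouse 355) and Rspo3 (-0.65 without the nucleus of mouse 355 and -0.68 without the cortex of mouse 355) for nucleus over cortex, Lgr4 (-0.52 without the hippocampus of mouse 511) for nucleus over hippocampus, and Lgr5 (0.46 as the mean over its probe sets) for cortex over hippocampus, all on the log2 scale. With 2 arrays per region, 2 residual degrees of freedom limit what the adjusted test can call.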

Other observations

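A second, dimmer probe set was present for 5 members. That of Sfrp2 had 4.59 and 3.42 in the nuclei of mice 355 and 511, 4.94 and 3.75 in cortex and 3.26 and 3.91 in hippocampus, so the order of regions seen with the brighter probe set in both mice was not found with it. That of Lrp6 had 4.03 and 5.27 in nucleus, 4.20 and 3.90 in cortex and 4.01 and 4.44 in hippocampus, with the nucleus of mouse 511 highest as for the brighter probe set. For Axin2 the second probe set had 4.98 and 5.08 in nucleus, 5.80 and 5.28 in cortex and 5.68 and 5.53 in hippocampus, and both nucleus values lay below the other 4. The second probe set of Lgr5 had 3.84 and 3.30 in nucleus, 3.79 and 2.98 in cortex and 3.28 and 3.07 in hippocampus, and did not separate the cortex. That of Notum lay between 2.49 and 3.26 on all arrays.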
